A study of Mus musculus with 6 samples.

Results

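Death ligands and death receptors are members of the tumor necrosis factor (TNF) superfamily and of its receptor family that can signal a cell to die. The set described here holds 3 ligands, *Tnf* (TNF), *Fasl* (FAS ligand) and *Tnfsf10* (TRAIL), and 4 receptors, *Tnfrsf1a* (TNFR1), *Tnfrsf1b* (TNFR2), *Fas* and *Tnfrsf10b* (the mouse TRAIL receptor). The members were chosen by gene symbol, and each of the 7 was found in a single row among the 59485 genes of the deposited expression table. The study sequenced poly-A RNA of sciatic nerves taken at postnatal day 4 (P4), with 3 control libraries labelled wild-type and 3 mutant libraries labelled Ht-PA-Cre; Adar1fl/fl;R26R. In the mutants, a human tissue plasminogen promoter drives Cre recombinase in neural crest cells, which should remove both floxed copies of *Adar*, the gene of the RNA-editing enzyme ADAR1. R26R is a YFP tracer of the neural crest lineage. In the study's methods the wild-type group carries R26R and 1 or 2 floxed *Adar1* alleles but no Cre, so floxed alleles and tracer were shared by both groups. Schwann cells derive from the neural crest, whereas endothelial, blood and muscle cells of the nerve do not and should keep *Adar*. The whole nerve was extracted without sorting, so a value pools all its cell types, and a change in the number of cells of a type cannot be told apart from a change in RNA per cell.

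The ligands act as trimers on the cell surface or after release from it. FAS, TNFR1 and the TRAIL receptor carry a death domain through which they recruit adaptors such as FADD and TRADD and, with them, caspase-8. TNFR2 has no death domain and signals through TRAF proteins. The same receptors can also switch on NF-kB and inflammatory genes, and c-FLIP and the cIAP proteins hold back the death branch. In peripheral nerve, TNF is best known from injury, where Schwann cells and macrophages make it during the breakdown of axons and myelin.

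The libraries held between 50938349 and 78250094 reads on genes. Values are the authors' read counts divided by a size factor for each library, called normalized reads below. The targeted gene, *Adar* (GSMG0024553), had 1602, 2066 and 1133 normalized reads in control replicates 1, 2 and 3, and 11768, 9311 and 9773 in mutant replicates 1, 2 and 3. *Adar* was thus higher where the labels name a deletion, and the table has a single value for the gene, so the deleted segment could not be examined apart from the rest. For this reason the libraries are called control-labelled or mutant-labelled, and all directions rest on the labels. Schwann cell markers, summed over 9 genes including *Sox10*, were present in every library, at 1139110 to 1508490 normalized reads in the controls and 55435 to 210553 in the mutants.

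The promoters of 6 of the 7 members were found in the RefSeq table for build GRCm38.p6, and *Tnfrsf10b* had no entry. The 250 bases before the start of the gene are printed for 4 members that were higher in the mutant-labelled nerves, as examples from both ligands and receptors. The windows were searched on both strands for AANNGAAA, a short form of the site of interferon regulatory factors, for TTCNNNGAA, the core of the site of STAT proteins, and for GGNNNTTCC, a short form of the site of NF-kB. Capitals mark the matches, none of which overlap. These letters were chosen after the members' promoters had been seen, and a match is a description of the sequence and not a measured binding site.
Tnf promoter, chr17:35202008-35202257, minus strand: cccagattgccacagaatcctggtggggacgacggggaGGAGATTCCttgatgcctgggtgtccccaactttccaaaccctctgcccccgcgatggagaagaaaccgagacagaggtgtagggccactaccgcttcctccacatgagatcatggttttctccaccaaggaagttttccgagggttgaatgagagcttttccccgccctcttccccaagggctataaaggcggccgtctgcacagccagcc
Tnfsf10 promoter, chr3:27316827-27317076, plus strand: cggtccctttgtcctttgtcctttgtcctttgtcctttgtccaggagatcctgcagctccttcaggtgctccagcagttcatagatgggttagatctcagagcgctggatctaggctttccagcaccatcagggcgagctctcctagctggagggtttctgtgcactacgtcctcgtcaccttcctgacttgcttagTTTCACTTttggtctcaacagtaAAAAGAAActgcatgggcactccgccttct
Fas promoter, chr19:34290409-34290658, plus strand: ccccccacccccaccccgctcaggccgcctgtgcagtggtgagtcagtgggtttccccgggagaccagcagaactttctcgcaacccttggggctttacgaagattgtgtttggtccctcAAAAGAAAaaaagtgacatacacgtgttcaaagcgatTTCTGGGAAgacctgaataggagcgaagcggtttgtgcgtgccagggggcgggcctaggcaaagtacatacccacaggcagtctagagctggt
Tnfrsf1b promoter, chr4:145246871-145247120, minus strand: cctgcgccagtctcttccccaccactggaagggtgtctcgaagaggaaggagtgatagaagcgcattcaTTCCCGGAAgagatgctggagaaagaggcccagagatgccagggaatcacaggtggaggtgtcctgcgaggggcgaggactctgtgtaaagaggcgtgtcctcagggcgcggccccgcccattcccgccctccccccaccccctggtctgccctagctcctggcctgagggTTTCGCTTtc

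*Tnf* held the NF-kB letters at positions -212 to -204 from the gene start. *Tnfsf10* held the interferon regulatory factor letters at 2 places, -53 to -46 and -30 to -23, and in this gene the last 50 bases of the window lie inside the gene as the deposited table draws it. *Fas* held these letters at -130 to -123 and the STAT letters at -93 to -85. *Tnfrsf1b* held the interferon regulatory factor letters at -10 to -3 and the STAT letters at -181 to -173. In the promoter of *Tnfrsf1a*, which is not printed, the STAT letters lay at -244 to -236 and the NF-kB letters at -14 to -6. The window of *Fasl* held none of the 3 motifs. Among all 32851 RefSeq promoters of this length, 21.3% held the interferon regulatory factor letters, 7.02% the STAT letters and 15.7% the NF-kB letters.

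Of the 7 death ligands and receptors, 6 were higher in the mutant-labelled nerves and 1, *Fasl*, lay below the filter on low values. The fold changes ran from 2.82 for *Tnfrsf1a* to 8.92 for *Tnfsf10*. For each of the 6, every mutant-labelled library lay above every control-labelled library, as was the case for 25.9% of all tested genes. Genes were tested with limma on log2(value + 1) when their mean was at least 10 in at least 1 group, and each of the 6 would have been tested on its control mean alone. The study's methods set a p at or under 0.05 with at least a 2-fold change, and do not say whether p was adjusted. All 6 passed this threshold, read here as an unadjusted p. Of the 25802 genes tested, 24.2% passed it in either direction, 13.9% as higher and 10.4% as lower in the mutant-labelled libraries. Their adjusted p-values were all at or under 0.05 too (limma, Benjamini-Hochberg over all tested genes), a rule that 11.5% of tested genes passed as higher. The median log2 fold change was 1.94 over the 6 members and 0.03 over all genes tested.

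**Figure D1:**
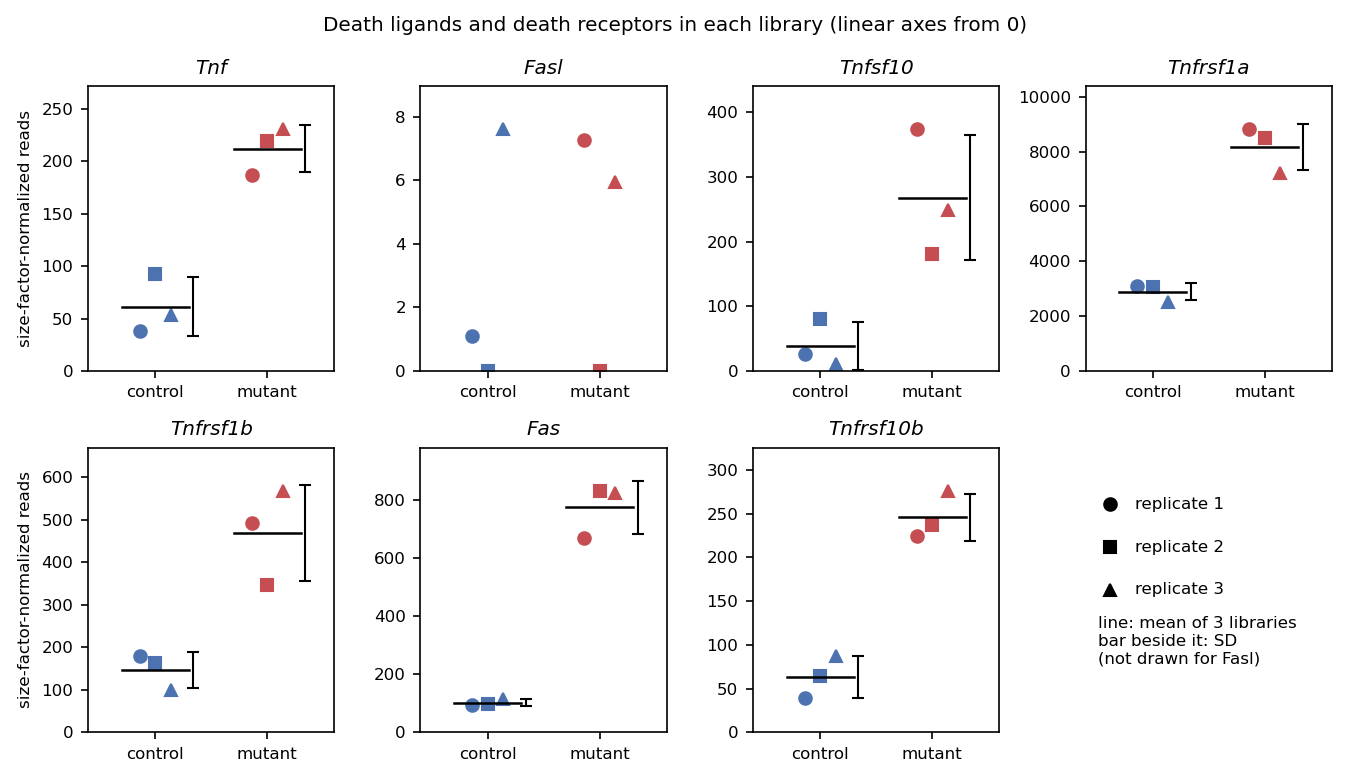
Normalized reads (linear vertical axes from 0) of the 3 ligands and 4 receptors in each of the 3 control-labelled (blue) and 3 mutant-labelled (red) libraries, with symbols for replicates 1 to 3, a line at the mean and a bar for the SD. The groups do not overlap for any gene but *Fasl*, whose values lie between 0 and 7.60 in both groups.

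*Tnf* (GSMG0017461, mm10 chr17:35199367-35202008, minus strand) encodes the ligand of both TNFR1 and TNFR2. Control replicates 1, 2 and 3 had 37.8, 92.6 and 53.2 normalized reads, and mutant replicates 1, 2 and 3 had 186.9, 219 and 230.5. The lowest mutant-labelled library was thus above the highest control by more than the range within either group. The mean was 61.2 ± 28.3 (SD, n = 3) in the controls and 212 ± 22.6 (SD, n = 3) in the mutants. The log2 fold change was 1.87 (standard error 0.37, limma adjusted p = 0.00521), which is 3.65-fold with a 95% interval from 2.04 to 6.55. One unnamed gene overlaps *Tnf* on the opposite strand, and the sources used here do not say whether the counting used strand.

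*Tnfsf10* (GSMG0024148, chr3:27317027-27342973, plus strand) encodes TRAIL, a ligand known to be induced by interferon in many cells. It had 25.5, 80.3 and 10.1 normalized reads in control replicates 1, 2 and 3, and 373, 181 and 249 in mutant replicates 1, 2 and 3. Both groups were spread widely: control replicate 2 had the highest control value and mutant replicate 1 the highest of all. The mean rose from 38.7 ± 36.9 (SD, n = 3) to 268 ± 97.2 (SD, n = 3), a ratio of means of 6.93. The limma log2 fold change, a difference of mean log2 values, was 3.16 (standard error 0.67, limma adjusted p = 0.00752). The interval of this 8.92-fold change ran from 3.07 to 26.0, the widest among the 6 members. Single controls decided its size: the change was 5.54-fold without control replicate 3 and 15.0-fold without control replicate 2.

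*Fasl* (GSMG0002320, chr1:161780689-161788495, minus strand), the FAS ligand best known from cytotoxic lymphocytes, was barely detected. Its values were 1.11, 0 and 7.60 normalized reads in the control replicates and 7.27, 0 and 5.93 in the mutant replicates. These correspond to 1, 0 and 6 reads and to 10, 0 and 6 reads, and the groups overlapped entirely. A library with 0 reads allows up to 2.83 normalized reads in control replicate 2 and 2.89 in mutant replicate 2, by counting error alone. *Fasl* lay below the filter, and when no filter was applied it had a log2 fold change of 0.55 (limma adjusted p = 0.767 over 37315 genes). No difference in *Fasl* was detected, and with so few reads a small one could be missed.

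Markers of T and NK cells were, as a sum, also higher in the mutant-labelled libraries. Their sum over 15 genes was 170 to 279 normalized reads in the controls and 717 to 1236 in the mutants. Of the 13 tested, 9 met the filter through the mutants alone, which favours genes that are higher there, and of the 4 that met it on their control mean 3 passed the threshold as higher. The T cell gene *Cd3d* was at 0 in every control and at 3.86 to 9.89 in the mutants, and was not tested. The other CD3 genes overlapped between the groups and did not pass: *Cd3e* was at 5.07 to 25.5 in the controls and 5.93 to 24.7 in the mutants, and *Cd3g* at 7.56 to 13.3 and 13.1 to 75.3. Of the CD8 genes, *Cd8b1* was at 0 in all libraries but mutant replicate 2 and was not tested, while *Cd8a* was at 0 in every control and at 5.93 to 20.4 in the mutants and passed as higher (limma adjusted p = 0.0133). The T cell genes *Cd2* (log2 fold change 2.33) and *Cd28* (1.78) also passed as higher, with limma adjusted p = 0.0252 each, and *Cd4* (1.05) passed with overlapping groups and a limma adjusted p of 0.0542. The NK cell receptor *Ncr1* was at 0 in all 3 controls and averaged at least 16.4-fold above the 3-read floor in the mutants. The killer cell genes *Prf1* and *Eomes* were also at 0 in all controls and were at least 9.27-fold and 6.45-fold above the floor. Macrophage markers, summed over 14 genes, overlapped between the groups, with 23047 to 29603 in the controls and 23193 to 27168 in the mutants. The sum hides opposed changes, since 2 of these markers (*Aif1* and *Fcgr1*) passed as higher and 5 (*Csf1r*, *Cx3cr1*, *Mrc1*, *Cd163* and *Lyz2*) as lower. Beside these T, NK and macrophage counts, 13.9% of all tested genes passed as higher and 10.4% as lower, and 2355 of the 23357 genes that met the filter on their control mean passed as higher. Leukocyte markers over 5 genes lay at 4172 to 4721 against 4692 to 6499, and neutrophil markers over 10 genes at 76.5 to 260 against 185.9 to 846. The part of these cells in the changes of the ligands and receptors was not tested.

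**Figure D2:**
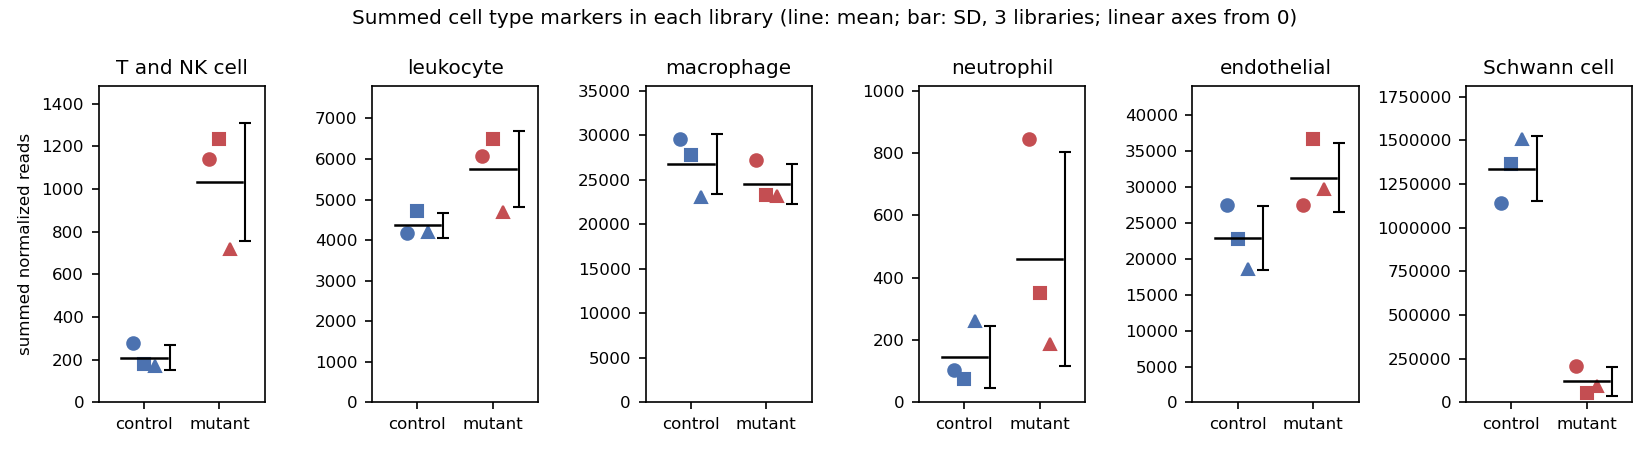
Summed normalized reads (linear axes from 0) of 6 lists of cell type markers in each control-labelled (blue) and mutant-labelled (red) library, with circles, squares and triangles for replicates 1, 2 and 3, a line at the mean and a bar for the SD. The T and NK cell sums do not overlap between groups (170 to 279 against 717 to 1236), the macrophage sums do, and the Schwann cell sums lie far lower in the mutants.

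All 4 receptors rose, and their standard errors were smaller than those of the ligands. *Fas* (GSMG0019616, chr19:34290659-34327770, plus strand), the receptor of FAS ligand, had 95.5, 96.4 and 115 normalized reads in the controls against 669, 832 and 825 in the mutants. The 3 controls were nearly level, and the lowest mutant lay far above them. The mean rose from 102 ± 11.2 to 775 ± 91.9 (SD, n = 3 each), a log2 fold change of 2.91 (standard error 0.20, limma adjusted p = 2.4e-05). This was a 7.5-fold change, with an interval from 5.49 to 10.2, and 5.48% of tested genes had a larger log2 fold change. One unnamed gene overlaps *Fas* on the opposite strand. The receptor thus rose in libraries in which its ligand stayed at 10 reads or fewer.

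*Tnfrsf1a* (GSMG0032490, chr6:125349723-125362484, plus strand), whose product carries the death domain for TNF, had 3084, 3075 and 2528 normalized reads in the controls against 8811, 8493 and 7210.3 in the mutants. It had the smallest fold change of the 6 and the narrowest interval, 2.82-fold with bounds of 2.33 and 3.42. Its log2 fold change was 1.5 (standard error 0.12, limma adjusted p = 5.4e-05), from a mean of 2895 ± 318 to one of 8171 ± 847 (SD, n = 3 each).

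*Tnfrsf1b* (GSMG0028634, chr4:145212368-145246871, minus strand), the TNF receptor without a death domain, had 179, 163 and 100.1 normalized reads in the controls against 492, 347 and 568 in the mutants. The mutant values were more scattered than those of *Tnfrsf1a*, but the lowest of them was still above all controls. The mean rose from 147 ± 41.5 to 469 ± 112 (SD, n = 3 each), a log2 fold change of 1.68 (standard error 0.29, limma adjusted p = 0.00275).

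*Tnfrsf10b* (GSMG0011759, chr14:69767471-69784403, plus strand), the only death domain receptor for TRAIL in the mouse, had 38.9, 64.3 and 87.4 normalized reads in the controls against 224, 237 and 276 in the mutants. All 3 mutant values were close together, and each was above the highest control. The mean rose from 63.5 ± 24.3 to 246 ± 27.0 (SD, n = 3 each), a log2 fold change of 2.0 (standard error 0.34, limma adjusted p = 0.00262).

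Ratios within a library showed whether members moved by the same factor, since they do not depend on the scaling of the library. For 3 animals against 3, a two-sided exact permutation test reaches 0.1 at the lowest, so none of the 11 ratios compared could pass a threshold of 0.05, and the ratios were chosen after the values had been seen. The ratio of *Fas* to *Tnfrsf1a* was 0.0310, 0.0313 and 0.0456 in the controls against 0.0760, 0.0979 and 0.114 in the mutants, without overlap (exact p = 0.1, adjusted p = 0.157 over the 11 ratios). *Fas* thus rose by more than *Tnfrsf1a* in these libraries. The ratio of the TNF receptors, *Tnfrsf1b* to *Tnfrsf1a*, overlapped between the groups (0.0396 to 0.0580 in the controls, 0.0409 to 0.0787 in the mutants, exact permutation p = 0.6). The ratio of *Tnfsf10* to *Tnf* also overlapped, at 0.190 to 0.867 in the controls and 0.828 to 1.996 in the mutants (exact permutation p = 0.2).

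**Figure D3:**
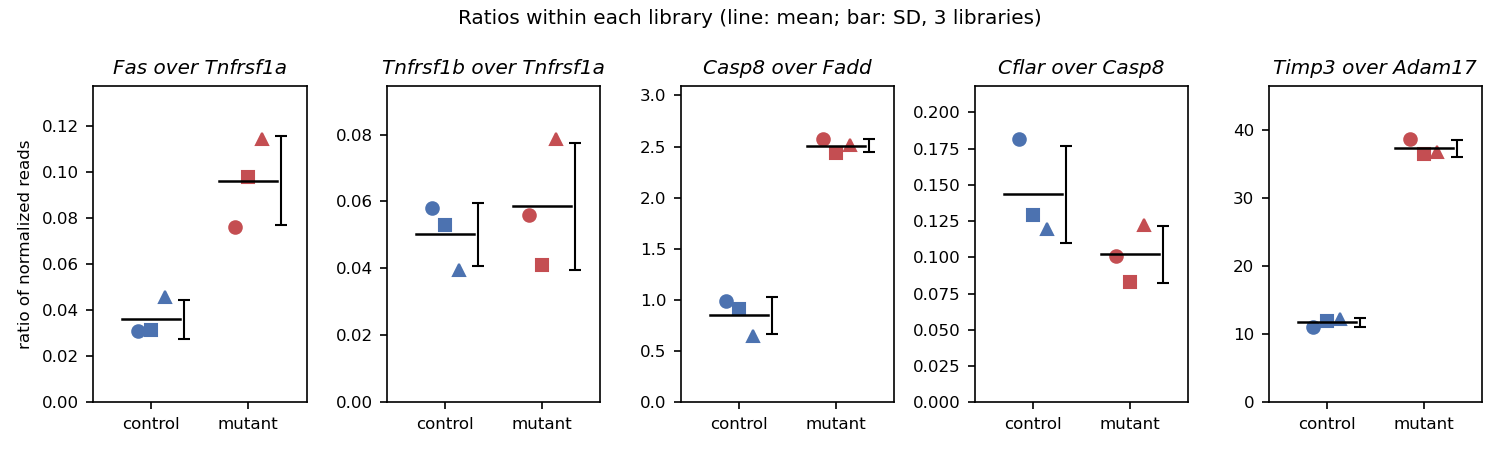
Ratios of normalized reads of gene pairs within each library (linear axes from 0), control-labelled in blue and mutant-labelled in red, with circles, squares and triangles for replicates 1, 2 and 3, a line at the mean and a bar for the SD. *Fas* over *Tnfrsf1a*, *Casp8* over *Fadd* and *Timp3* over *Adam17* are higher in all 3 mutants than in all 3 controls, and the other 2 ratios overlap.

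Genes of the proteins that gather at the receptors were measured as RNA only. Of the 17 genes of the death-inducing signalling complex and its regulators, 7 rose past the threshold, 0 fell and 10 did not pass, beside 13.9% higher and 10.4% lower of all tested genes, and the median log2 fold change was 0.70. Some of those that did not pass fell short of the 2-fold limit alone, since 10 of the 17 had a limma adjusted p of at most 0.05, and 15 had a log2 fold change above 0. *Casp8*, the initiator caspase of the complex, rose from 1307 ± 214 to 4629 ± 59.7 normalized reads (SD, n = 3 each), a log2 fold change of 1.84 (standard error 0.13, limma adjusted p = 3.4e-05). An unnamed gene overlaps *Casp8* on the same strand, so the counting may have split its reads. *Cflar*, which encodes the caspase-8 inhibitor c-FLIP, rose from 190.0 ± 63.8 to 473 ± 95.3 (1.35 on the log2 scale, standard error 0.29, limma adjusted p = 0.00732). The ratio of *Cflar* to *Casp8* was 0.119 to 0.182 in the controls and 0.0833 to 0.122 in the mutants, and these ranges overlapped (exact permutation p = 0.2).

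The adaptors did not pass. *Fadd* had 1549 ± 125 normalized reads in the controls and 1846 ± 59.2 in the mutants (log2 fold change 0.26, limma adjusted p = 0.102), and *Tradd*, the adaptor of TNFR1, had 174 ± 23.7 and 206 ± 22.7 (0.25, limma adjusted p = 0.438). The ratio of *Casp8* to *Fadd* was 0.994, 0.914 and 0.647 in the controls against 2.58, 2.44 and 2.51 in the mutants (exact permutation p = 0.1, the smallest possible). The balance of the transcripts of initiator and adaptor therefore differed between the groups without overlap.

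*Ripk1*, the kinase that links TNFR1 to survival or death, rose by 1.08 on the log2 scale (standard error 0.13, limma adjusted p = 0.000388), from 1229.8 ± 156 to 2599.9 ± 207 normalized reads. It was at 0.99 without control replicate 3, just under the 2-fold limit. *Traf2*, which recruits the cIAP ubiquitin ligases to the TNF receptors, rose by 1.86 (standard error 0.17, limma adjusted p = 0.000113), and *Birc3*, the gene of cIAP2, by 2.43 (standard error 0.18, limma adjusted p = 3.6e-05). *Tnfaip3*, which encodes A20, a brake on NF-kB signalling, rose by 2.01, and *Daxx*, first known as a partner of FAS, by 2.20. *Traf2* and *Birc3* overlap unnamed genes on the same strand. Among the genes of the complex that did not pass, *Xiap* had a log2 fold change of 0.05 and *Sharpin* one of -0.04. *Traf1* had the lowest, -0.63 (limma adjusted p = 0.103).

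**Figure D4:**
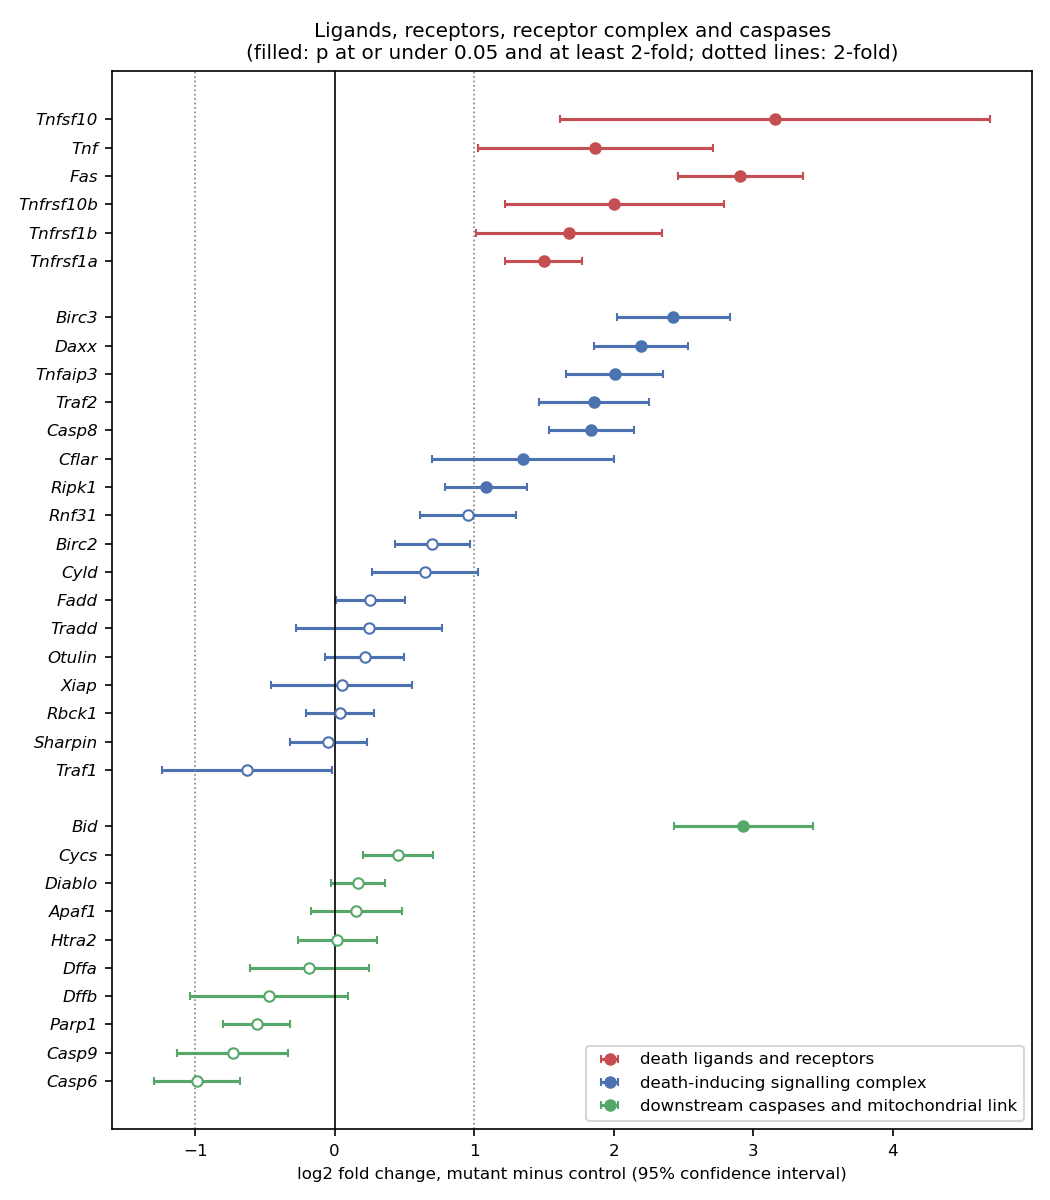
Log2 fold changes (mutant-labelled minus control-labelled, 3 libraries each) with 95% confidence intervals for the 6 tested ligands and receptors (red), the 17 genes of the receptor complex (blue) and 10 downstream genes (green), where filled points passed the threshold and dotted lines mark 2-fold. The members lie between 1.5 and 3.16, the receptor complex between -0.63 and 2.43, and the downstream genes between -0.99 and 2.93.

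Downstream of caspase-8, 1 of 10 listed genes passed as higher, 0 as lower and 9 did not pass, with a median log2 fold change of -0.08. Of all tested genes, 13.9% passed as higher and 10.4% as lower, so nothing particular to these 10 can be read from the count. *Bid*, whose product is cleaved by caspase-8 and carries the signal to mitochondria, had 203, 147 and 118 normalized reads in the controls against 1229, 1097 and 1181 in the mutants. Its log2 fold change of 2.93 (standard error 0.22, limma adjusted p = 3.8e-05) was about as large as that of *Fas*. *Bcl2l13* overlaps *Bid* on the opposite strand. *Casp6* had a log2 fold change of -0.99 (limma adjusted p = 0.000799), just short of the limit, and passed as lower without control replicate 1 (-1.01) or without mutant replicate 2 (-1.07).

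TNF is made as a membrane protein and is released by the protease ADAM17, which TIMP3 inhibits. Of 5 genes of this step, 0 passed as higher, 1 passed as lower and 4 did not pass, with a median log2 fold change of -0.46. Over 5 genes this count is near the shares of all tested genes (13.9% higher, 10.4% lower). The gene that fell was *Adam10*, a related shedding protease that also cleaves FAS ligand, from 9509 ± 118 to 3479 ± 387 normalized reads (SD, n = 3 each, log2 fold change -1.46, limma adjusted p = 3.0e-05). *Adam17* itself had 5142, 4784 and 4879 in the controls against 2789, 2418 and 2756 in the mutants, a log2 fold change of -0.90 (limma adjusted p = 0.000251) that fell short of 2-fold. *Timp3* had a log2 fold change of 0.77 (limma adjusted p = 0.000644). The ratio of *Timp3* to *Adam17* lay between 11.04 and 12.3 in the controls and between 36.5 and 38.7 in the mutants (exact permutation p = 0.1, the smallest possible). *Tnf* and *Timp3* were thus above, and *Adam17* and *Adam10* below, all controls in every mutant-labelled library.

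Several of the other TNF superfamily ligands rose. Of 15 listed, *Tnfsf12* and *Tnfsf13* share a row of the table, 12 rows were tested, 8 passed as higher, 1 as lower and 3 did not pass, with a median log2 fold change of 2.14. Of these rows, 4 met the filter through the mutants alone, and among the 8 that met it on their control mean 4 passed as higher. Of all tested genes 13.9% passed as higher and 10.4% as lower, and of the 23357 that met the filter on their control mean 2355 passed as higher. *Tnfsf8*, the ligand of CD30, had 0, 53.9 and 2.53 normalized reads in the controls against 610.3, 705 and 603 in the mutants. Its log2 fold change of 6.79 (limma adjusted p = 0.00339) was 8.41 without control replicate 2 and 5.52 without control replicate 1. *Tnfsf18*, the ligand of GITR, was at 0 in all controls and was at least 17.3-fold higher in the mutants, against a floor of 3 reads per control library. *Tnfsf15* had 6.66, 22.7 and 0 in the controls against 105, 65.6 and 144 in the mutants, and *Tnfsf4*, the ligand of OX40, had 1.11, 5.67 and 0 against 24.0, 9.65 and 78.1. Both passed in every fit with 1 library left out, while their log2 fold changes of 4.15 and 3.52 moved by more than 1.5-fold in some: *Tnfsf15* was at 5.19 without control replicate 2 and 2.90 without control replicate 3, and *Tnfsf4* at 4.25 without control replicate 2 and 2.76 without mutant replicate 3. *Eda*, the ectodysplasin gene, was the 1 that fell, by 1.04 on the log2 scale (limma adjusted p = 0.0121), and it did not pass without control replicate 3 (-0.86).

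*Lta* and *Ltb*, which encode the lymphotoxins, lie on either side of *Tnf* on chromosome 17, at 35203164 to 35205351 and 35194507 to 35196391. *Lta* had 14.4, 11.3 and 2.53 normalized reads in the controls against 33.5, 28.0 and 59.3 in the mutants (log2 fold change 2.16, standard error 0.73, limma adjusted p = 0.0491), which was 1.51 without control replicate 3 and no longer passed without mutant replicate 3. *Ltb* had 28.9, 13.2 and 30.4 against 149, 141 and 49.5 (log2 fold change 2.11, standard error 0.57, limma adjusted p = 0.0206). *Lta* met the filter through the mutants alone.

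Of the 24 other receptors of the family, 10 passed as higher, 1 as lower and 13 did not pass, with a median log2 fold change of 0.95. Among the 20 that met the filter on their control mean, 7 passed as higher. The shares over all tested genes were 13.9% higher and 10.4% lower, with 2355 of 23357 higher on the control mean. *Tnfrsf9*, a costimulatory receptor of activated lymphocytes, had 1.11, 0 and 1.27 normalized reads in the controls against 121, 159 and 68.2 in the mutants. *Edar*, the ectodysplasin receptor, was at 0 in all controls and was at least 16.6-fold higher in the mutants. *Tnfrsf19* (TROY) had 26.7, 13.2 and 11.4 in the controls against 817, 282 and 134 in the mutants, a log2 fold change of 4.21 that was 3.52 without mutant replicate 1 and 4.83 without mutant replicate 3. *Eda2r*, a receptor gene that p53 can induce, rose by 3.54 (standard error 0.43, limma adjusted p = 0.000455). The receptor of TWEAK, *Tnfrsf12a*, had 1216, 1366 and 1576 in the controls against 15189, 13429 and 17941 in the mutants, a log2 fold change of 3.48 (standard error 0.14, limma adjusted p = 2.4e-06). The 1 that fell was *Tnfrsf25* (DR3), itself a death domain receptor, by 1.82 (standard error 0.35, limma adjusted p = 0.00474). Without mutant replicate 3, *Tnfrsf17* passed as lower too. *Relt* (log2 fold change 1.01) no longer passed as higher without control replicate 2, control replicate 3 or mutant replicate 1. *Cd40*, *Cd27*, *Tnfrsf8* and *Tnfrsf26* passed as higher in at least 1 fit with a library left out.

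The decoy receptors, which bind TRAIL without a death domain, did not pass the threshold. *Tnfrsf22*, a mouse decoy receptor, had 1268, 1219.9 and 1326 normalized reads in the controls against 873, 692 and 982 in the mutants, a log2 fold change of -0.60 (limma adjusted p = 0.0161). Its neighbour *Tnfrsf23*, the other decoy, had 617, 416 and 463 against 801, 739 and 623 (log2 fold change 0.54, limma adjusted p = 0.0549). Every mutant-labelled library lay below all controls for *Tnfrsf22* and above them for *Tnfrsf23*. Both genes overlap *E230032D23Rik* on the opposite strand. The ratio of *Tnfrsf10b* to *Tnfrsf22* rose from 0.0306, 0.0527 and 0.0660 to 0.257, 0.343 and 0.281, without overlap (exact permutation p = 0.1). Osteoprotegerin, a soluble receptor that can also bind TRAIL, is encoded by *Tnfrsf11b*, which rose from 43.8 ± 9.19 to 264 ± 17.2 (2.58 on the log2 scale, standard error 0.29, limma adjusted p = 0.000299). *Ngfr*, the death domain receptor for neurotrophins in Schwann cells, had 6136 ± 348 normalized reads in the controls and 6135 ± 519 in the mutants (SD, n = 3 each), and its fold change had a 95% interval from 0.856 to 1.17.

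**Figure D5:**
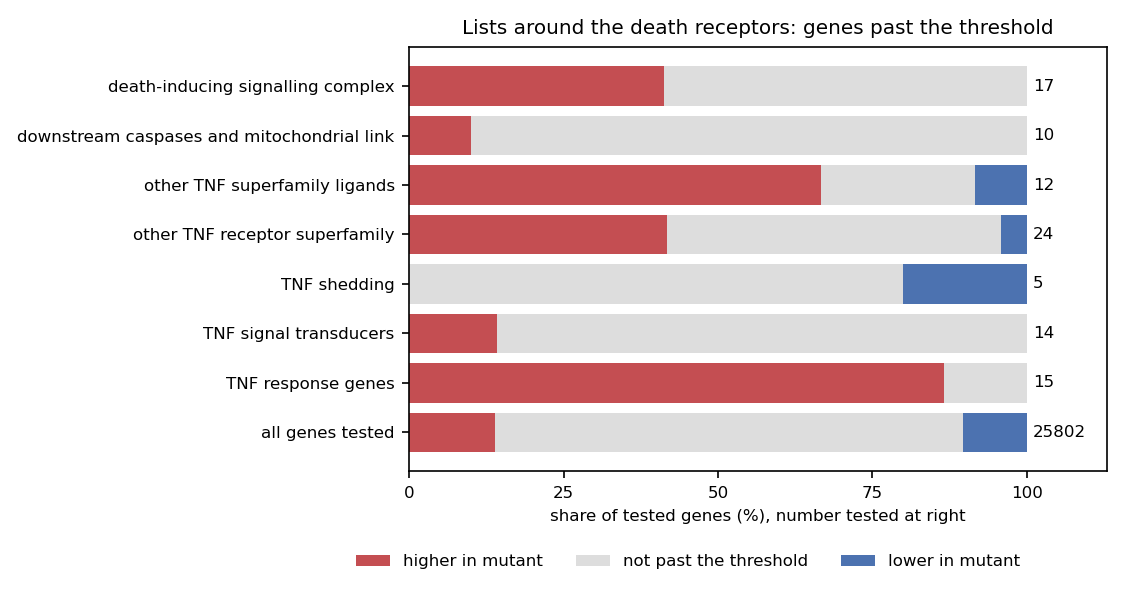
Share of tested genes (horizontal axis, %) that passed the threshold as higher (red) or lower (blue) in the mutant-labelled libraries, or did not pass (grey), in 7 lists around the death receptors and over all 25802 tested genes, with the number tested at the right of each bar. TNF response genes (13 of 15 higher) and other TNF ligands (8 of 12) have the longest red bars, with 4 genes in each tested only through their mutant mean, and TNF shedding has none.

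The signal transducers between receptor and nucleus passed at a share near that of all tested genes: 2 of 14 (14.3%) passed as higher, against 13.9%, and 0 as lower, with a median log2 fold change of 0.43. They were *Traf5*, with 76.1 ± 17.1 normalized reads in the controls and 314 ± 5.09 in the mutants (log2 fold change 2.05, limma adjusted p = 0.000526), and *Map3k14*, the kinase of the alternative NF-kB pathway (1.73, limma adjusted p = 0.000711). Both overlap unnamed genes on the same strand. Of the 15 tested TNF response genes, 13 passed as higher, 0 as lower and 2 did not pass, with a median log2 fold change of 3.34. Of these, 4 (*Il6*, *Cxcl2*, *Cxcl5* and *Ccl20*) met the filter through the mutants alone, and among the other 11, 9 passed as higher. *Ccl20* (log2 fold change 2.83, limma adjusted p = 0.0745) did not pass without control replicate 1 (2.31), control replicate 2, mutant replicate 1 or mutant replicate 2, and was at 3.86 without control replicate 3. Over all genes, 2355 of the 23357 that met the filter on their control mean passed as higher. *Ccl2*, a chemokine for monocytes, had 529.7, 643 and 560.1 in the controls against 22367, 18702 and 26652 in the mutants (log2 fold change 5.28, standard error 0.14, limma adjusted p = 8.4e-07). *Tnfaip2* rose from 92.8 ± 20.9 to 2761 ± 206 (4.90 on the log2 scale, standard error 0.19, limma adjusted p = 2.4e-06). The cytokine *Il6* had 9.99, 0 and 0 against 508, 479 and 412, and the neutrophil chemokine *Cxcl2* had 0, 9.45 and 2.53 against 246, 177 and 151. The antioxidant enzyme gene *Sod2* went the other way, with a log2 fold change of -0.62 (limma adjusted p = 0.000586), short of 2-fold. These genes also respond to other cytokines, and which of them acted in the nerve was not measured.

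The genes with the most similar course over the 6 libraries were named for each tested member, by the root mean square difference of log2 values centred on each gene's mean. For *Tnfsf10*, *Gbp8* (0.28) was the nearest and *Fcgr4* (0.41) was also among the 3 nearest, and both shared its high control replicate 2: *Gbp8* had 54.4, 149 and 17.7 normalized reads in the controls against 751, 551 and 628 in the mutants. For *Fas* they were *Apobec1* (0.11), *Stx11* (0.12) and *Igfbp3* (0.12). For *Tnf* they were *Crocc2* (0.13), *C7* (0.18) and *Zmynd15* (0.20). For *Tnfrsf1a* they were *Thbd* (0.06), *Arap3* (0.07) and *Gcnt2* (0.08), for *Tnfrsf1b* they were *Pign*, *Zbtb16* and *Lgals8* (0.13 each), and for *Tnfrsf10b* they were *Steap1* (0.11), *Cacna1b* (0.20) and *Nrxn3* (0.20). The number of genes within 0.3 of a member ran from 1 for *Tnfsf10* to 561 for *Tnfrsf1a*. *Tnfsf10* also had far fewer reads than *Tnfrsf1a*, and the part of read depth in these numbers was not tested.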

How the data were processed

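Each of the 6 samples, 3 per group, gave 1 library. Per the labels and the study's methods, the authors mapped reads to mm10 with STAR 2.4.0, counted those on constitutive regions of FAST DB genes and scaled each library by its DESeq2 size factor. The deposited signal is therefore a normalized read count per gene and library, with no filter applied. Within 0.01 read, every value was a whole multiple of what 1 read is worth (0.727 to 1.27). For mutant replicate 3 this value lay too close to 1 for an automatic check to accept the reads as recovered, so this library was left out of the count tests, edgeR and DESeq2, which serve only as alternatives.

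log2(value + 1) was fitted with limma as mutant minus control over 25802 genes with a mean of at least 10 in at least 1 group. The added 1 shrinks the change of low genes. Where controls are uneven, the fold change can still exceed the ratio of means, as for *Tnfsf8* (110 against 34.0). Errors are SDs over 3 libraries, p-values were adjusted by Benjamini-Hochberg, and depth ran from 50938349 to 78250094 reads on genes. Floors are 3 reads per library and cover counting error only, because amplified reads lack molecular identifiers. Fits were tested on simulated data.

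The members and lists were chosen with earlier results of these data known. Named from each list were at most the 4 largest rises and 2 largest falls past the threshold, the complex genes *Fadd*, *Tradd*, *Casp8*, *Cflar*, *Ripk1* and *Traf2*, and the 3 closest profiles per member. Other list genes were named after their values had been seen. The alternatives were pseudocounts of 0.1 and 10, no filter or a minimum of 50, rescaling to the same total or 75th percentile, eBayes without trend, TMM factors, an adjusted p, edgeR, DESeq2, a replicate block and each library left out. The expression filter of the methods was not applied. A few genes are not reported here and their list was counted without them. Promoters come from RefSeq (GRCm38.p6). R 4.3.3, limma 3.58.1, edgeR 4.0.16, DESeq2 1.42.0, Python 3.11.15, scipy 1.17.1 and matplotlib 3.10.9 were used.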

Additional observations from a re-analysis of the deposited data

How the results depend on the processing

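All 6 tested members passed the threshold, in the same direction, under each of the 18 alternatives: 12 other settings and 6 fits with 1 library left out. The log2 fold change ran from 1.58 to 2.21 for *Tnf*, 2.47 to 3.90 for *Tnfsf10*, 2.80 to 3.07 for *Fas*, 1.40 to 1.66 for *Tnfrsf1a*, 1.43 to 1.88 for *Tnfrsf1b* and 1.69 to 2.27 for *Tnfrsf10b*. The highest adjusted p of a member over all fits was 0.0370, for *Tnfsf10*. The number of genes past the threshold, 6251, ran from 4706 with a minimum mean of 50 to 6892 with no filter. Rescaling to the same total moved the median of all genes to 0.20. edgeR and DESeq2, on the 5 libraries without mutant replicate 3, gave 5435 and 5714 genes past the threshold, and for *Tnf* adjusted p-values of 0.0253 and 0.00292. Counts that moved by more than 1.5-fold were those of downstream caspases, other ligands and other receptors, each by 1 gene. *Eda* no longer passed with a pseudocount of 10 or the same total, and *Casp6* passed as lower with the same 75th percentile.

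The replicate numbers stand for different animals, and the deviations of same-numbered libraries correlated by -0.06, -0.06 and 0.01 across genes. No pairing by number was seen, but a check on 3 libraries per group cannot exclude one. With a replicate block, 6149 genes passed, and the adjusted p-values of the members were 0.00830 for *Tnf*, 0.0106 for *Tnfsf10*, 0.000200 for *Fas*, 0.000165 for *Tnfrsf1a*, 0.00759 for *Tnfrsf1b* and 0.00452 for *Tnfrsf10b*.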

Other observations

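Other cell type markers of the nerve, none of them a death ligand or receptor, are given as values, beside the 13.9% of all tested genes that passed the threshold as higher and the 10.4% that passed as lower. Neuron markers, 6 genes, summed to 1569 to 1969 normalized reads in the controls and 4219.6 to 4555 in the mutants, and 4 passed the threshold as higher, 1 of which met the filter through the mutants alone. Skeletal muscle markers, 10 genes, summed to 7321 to 38709 and 50567 to 371316, with 9 higher. Erythroid markers, 7 genes, summed to 55078 to 77130.1 and 5151 to 15734, with 6 lower. Fibroblast markers, 8 genes, had 3 lower, and endothelial markers, 8 genes, had 0 past the threshold (18614 to 27456 and 27573 to 36741). Perineurial markers, 5 genes, and mast cell markers, 7 genes, each had 1 higher and 1 lower, and the higher mast cell gene met the filter through the mutants alone. Adipocyte markers, 6 genes, and B cell markers, 4 tested genes, had 0 past the threshold. The part of these cells in the changes of the death ligands and receptors was not tested.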
